A study of Mus musculus with 17 samples.

Results

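The histone genes of mouse lung were examined in total RNA libraries, which measure transcripts with and without a poly(A) tail. Members were the protein-coding genes of the count table whose symbols begin with one of the prefixes of the core and linker histone families, Hist1h to Hist4h, H1f, H2ac, H2bc, H2af, H2az, H3c, H3f or H4c. They numbered 67 of 31245 genes. By gene name, 59 were replication-dependent genes (5 H1, 15 H2A, 16 H2B, 11 H3 and 12 H4), 6 were replacement variants and 2 were testis linker histones. Of the 67, 51 lay in the Hist1 cluster on chromosome 13 and 9 in the Hist2 cluster on chromosome 3.

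The libraries came from the lungs of 17 mice in 6 groups. Wild type (WT) Sv/129 mice had been purchased, while mice null for PPARα (KO) and mice that carried human PPARα in place of the mouse gene (KI) were bred from crosses of mouse PPARα null with human PPARα heterozygous animals. Genotype and source of the mice cannot be told apart. From 6 weeks of age the mice ate a custom American diet and drank for 14 weeks either 0.5% sucrose vehicle or water with 6.2 μg/mL of perfluorooctanoic acid (PFOA), a persistent surfactant used in fluoropolymer manufacture. WT vehicle held 2 libraries (mice 107 and 122, 1 male and 1 female), because the study left out 1 further sample. The other groups held 3 each, namely WT PFOA (mice 50, 56 and 65), KO vehicle (137, 145 and 149), KO PFOA (52, 154 and 155), KI vehicle (102, 116 and 135) and KI PFOA (57, 80 and 139). All KO mice were female, WT PFOA held 2 males and 1 female, and each KI group held 1 male and 2 females.

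Histones package DNA into nucleosomes. Replication-dependent genes lie in clusters, have no introns and supply histones in bulk while DNA is copied, and their mRNAs end in a conserved stem-loop in place of a poly(A) tail. Replacement variants such as H3.3 and H2A.Z are made throughout the cell cycle from polyadenylated, usually spliced mRNAs, and in an adult organ with few dividing cells they replace histones lost from chromatin. In whole lung, fewer cells of a type and less RNA per cell cannot be told apart.

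The depth was 4116118 to 9237356 counts per library, with a median of 7524757, and 3 counts corresponded to 0.325 to 0.729 CPM (counts per 1000000) before scaling. Markers of alveolar type 2 cells, which make surfactant, were all detected and summed to 2707 to 8685 CPM, as the lung label requires. A pair of libraries stood apart, with protein-coding genes taking 65.3% of the counts in WT vehicle 122 and 61.3% in KO vehicle 137 against 74.4% to 80.4% in the other 15. Ppara, the targeted gene, was not lower in the libraries labelled KO, with 8.82 to 11.8 CPM against 4.39 to 7.21 CPM in WT. In KI it was at 12.65 to 15.28 CPM on vehicle and 9.08 to 20.4 CPM on PFOA. KI was above WT at a log2 fold change of 1.11 ± 0.30 SE on vehicle (edgeR adjusted p = 0.161). On PFOA it was 1.44 ± 0.26 (edgeR adjusted p = 0.0185). KO and KI below therefore mean the libraries labelled so. These are gene-level totals, which would include reads from any part of the gene that a deletion leaves in place.

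The stem-loops are printed here because they mark which members can end without a poly(A) tail. A 16-base stem-loop of the form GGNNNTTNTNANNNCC was searched for after the stop codon, on the transcript strand only, in each member's coding transcripts of GENCODE M21. It was found in at least 1 transcript of 41 of the 59 replication-dependent genes (69.5%). It was found in 0 of 6 replacement variants and 1 of 2 testis linker genes. Other genes were searched differently, anywhere in the longest transcript of each, and 2.95% held it. Of the 47 replication-dependent genes with at least 20 annotated bases after the stop codon, 41 (87.2%) carried it. The sequences were read 5′ to 3′ from the reference transcripts, with T for U, the stem-loop in capitals and 5 flanking bases on each side in lower case.
H1f2: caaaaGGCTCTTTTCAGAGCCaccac
H4c4: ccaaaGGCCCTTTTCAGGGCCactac
H4c2: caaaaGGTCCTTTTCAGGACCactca
H4c1: ccaaaGGCCCTTCTCAGGGCCgccca
H4c9: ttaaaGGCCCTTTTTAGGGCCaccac
H2ac19: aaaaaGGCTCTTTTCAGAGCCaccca
The form in H1f2 and H2ac19 was shared by 23 of the 42 members with a stem-loop, from the H1, H2A, H2B and H3 families. The form in H4c4 was held by 6 members, all of them H4 genes and among them Hist1h4n. The form in H4c1 was found in that gene alone among the 42.

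Promoters were compared by letters in the 250 bases before the RefSeq start (GRCm38.p6), which matched 61 of 67 members. On either strand, CCAAT stood in 44 of 53 replication-dependent promoters (83%) and in 34.4% of 26964 other promoters. H4 genes were the family in which it was rare, with 3 of 11 against 41 of 42 in the H1, H2A, H2B and H3 families. TATAAA stood in 26 of 53 (49.1%) and in 12.9% of other promoters. The octamer ATTTGCAT stood in 9 of 53, all of them H2A or H2B genes, and in 1.58% of other promoters. Some windows of neighbouring genes on opposite strands overlap, such as those of H2ac8 and H2bc8, so the same bases can count for both genes. These are matches of letters and not sites of binding.

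A few genes supplied most histone reads. The 10 members with the highest CPM held 80.6% of the summed histone CPM, and 45 of the 59 replication-dependent genes averaged under 5 CPM. Levels between genes were compared as CPM per kilobase of exon. H3f3b, which encodes the replacement histone H3.3, had the highest level at 86.2 CPM per kb, the mean of 17 libraries. It was followed by the linker histone gene H1f2 at 69.9, the H4 gene H4c4 at 41.2, the linker gene H1f4 at 38.8 and the H2A gene H2ac19 at 33.9 CPM per kb. H3f3a, the other H3.3 gene, was at 33.8, and H2bc4, highest of the H2B genes, was at 31.6 CPM per kb. The highest replication-dependent H3 gene, H3c13, reached 11.1 CPM per kb.

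**Figure D1:**
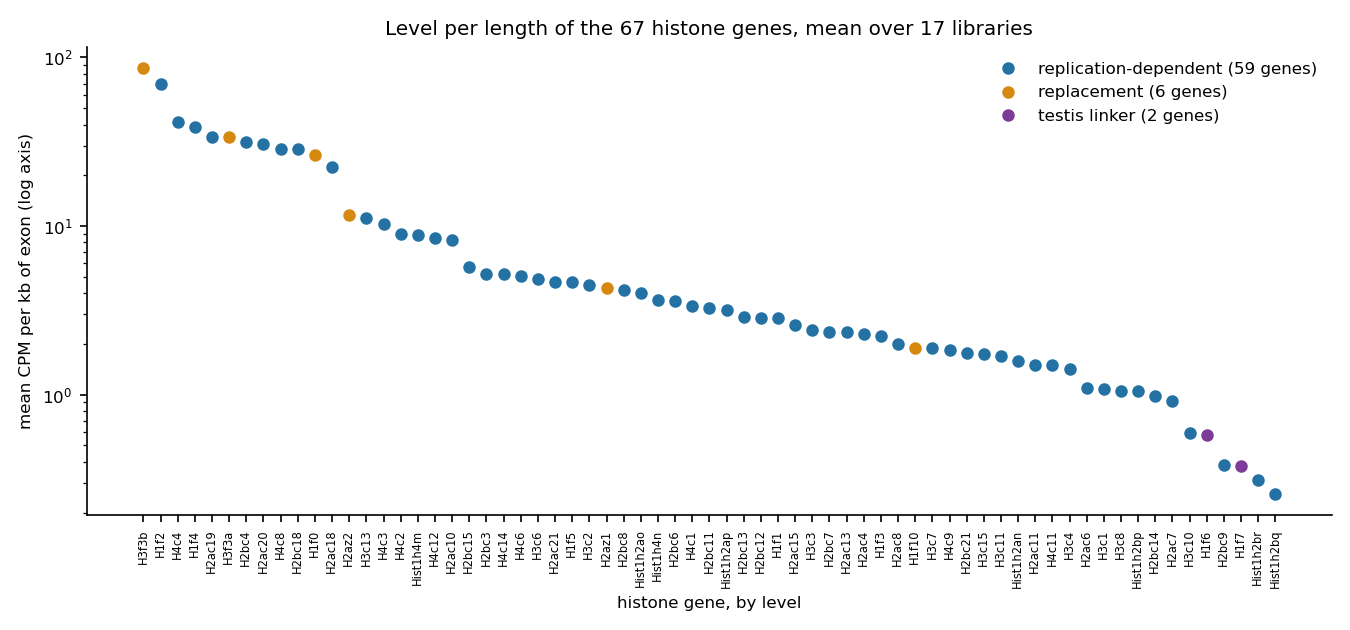
Mean CPM per kb of exon over 17 libraries (log axis) for each of the 67 histone genes in order of level, coloured by class. Replacement variants are spread through the order, from H3f3b at 86.2 to H1f10 at 1.90 CPM per kb, and the 2 testis linker genes are among the lowest.

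Levels were set beside the annotated ends of the transcripts. The median level was 3.28 CPM per kb (range 0.918 to 33.9) over 23 genes whose transcript ended within 100 bases of the stem-loop, and 2.79 CPM per kb (0.381 to 69.9) over 18 genes whose transcript ran on further. The annotated end is part of the exon length, so the level per kb depends on the grouping itself. Without division by length the order was reversed, with median levels of 1.53 and 2.66 CPM. The second set held 64.1% of the replication-dependent CPM, and H1f2, H1f4 and H4c4 were in it, with 840, 1153 and 770 annotated bases after the stem-loop. Reads within the shared part of such transcripts do not tell which end an mRNA had. Of the 18 replication-dependent genes without a stem-loop in the annotation, the 12 with under 20 bases after the stop codon had a median of 3.78 and the other 6 one of 2.31 CPM per kb. In CPM this order was reversed too, at 1.59 and 3.37. The 6 replacement variants had a median of 19.1 CPM per kb.

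Among the replacement variants, H3f3b gave 285 and 258 CPM in WT vehicle, 248, 298 and 259 in WT PFOA, 174, 244 and 269 in KO vehicle, 256, 278 and 267 in KO PFOA, 241, 250 and 248 in KI vehicle and 263, 267 and 258 in KI PFOA. KO vehicle 137 was the lowest library, and KI vehicle lay below WT vehicle, KO PFOA and KI PFOA. H3f3a averaged 118 CPM with a range of 36.6 to 153, the lowest again being KO vehicle 137. H1f0, the linker histone of resting and differentiated cells, ranged from 32.2 to 72.4 CPM. Of the H2A.Z genes, H2az2 ranged from 8.29 to 23.3 CPM and H2az1 from 4.15 to 10.5 CPM. H1f10, another linker variant, ranged from 0.978 to 3.47 CPM. None of these 6 was called in any of the 10 comparisons by edgeR, and their smallest unadjusted p was 0.0729, for H1f0 between KI PFOA and KI vehicle.

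Of the abundant replication-dependent genes, H1f2 gave 110 and 105 CPM in WT vehicle, 110, 152 and 105 in WT PFOA, 53.0, 111 and 96.8 in KO vehicle, 101, 139 and 129 in KO PFOA, 137, 86.0 and 96.3 in KI vehicle and 119, 105 and 101 in KI PFOA. The groups overlapped. H4c4 ranged from 42.8 to 55.4 CPM outside KO vehicle 137, where it was at 18.2 CPM. H1f4 ranged from 35.2 to 98.2 CPM, H1f3 from 11.7 to 24.5 CPM and H2bc4 from 20.96 to 49.8 CPM. The testis linker genes H1f6 and H1f7 together gave 0.228 to 1.64 CPM in 16 libraries and 5.07 CPM in KO vehicle 137.

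Summed over their 59 genes, replication-dependent histones reached 482 ± 20.8 CPM (SD, n = 2) in WT vehicle, 498 ± 50.9 in WT PFOA, 410 ± 131 in KO vehicle, 512 ± 19.8 in KO PFOA, 454 ± 53.3 in KI vehicle and 474 ± 10.4 in KI PFOA (n = 3 each). The sum was 260 CPM in KO vehicle 137 and 409 to 556 CPM in the other 16 libraries, and without that library the KO vehicle mean was 485 CPM. The 6 replacement variants summed to 256 CPM in KO vehicle 137 and to 437 to 514 CPM elsewhere. Both classes were thus low in the same library, and the remaining group means lay within the spread between libraries.

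H3 was the family in which replacement genes outweighed the replication-dependent ones. The H3.3 genes together gave 13.1 to 25.5 times the CPM of all 11 replication-dependent H3 genes, with a median of 16.8. The ratio was 17.8 ± 4.48 (SD, n = 2) in WT vehicle, 22.4 ± 3.15 in WT PFOA, 15.4 ± 1.67 in KO vehicle, 16.5 ± 0.541 in KO PFOA, 17.7 ± 4.98 in KI vehicle and 16.5 ± 3.86 in KI PFOA (n = 3 each). WT PFOA was the highest group and overlapped with WT vehicle and both KI groups. This compares CPM, and the H3.3 transcripts are longer.

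**Figure D2:**
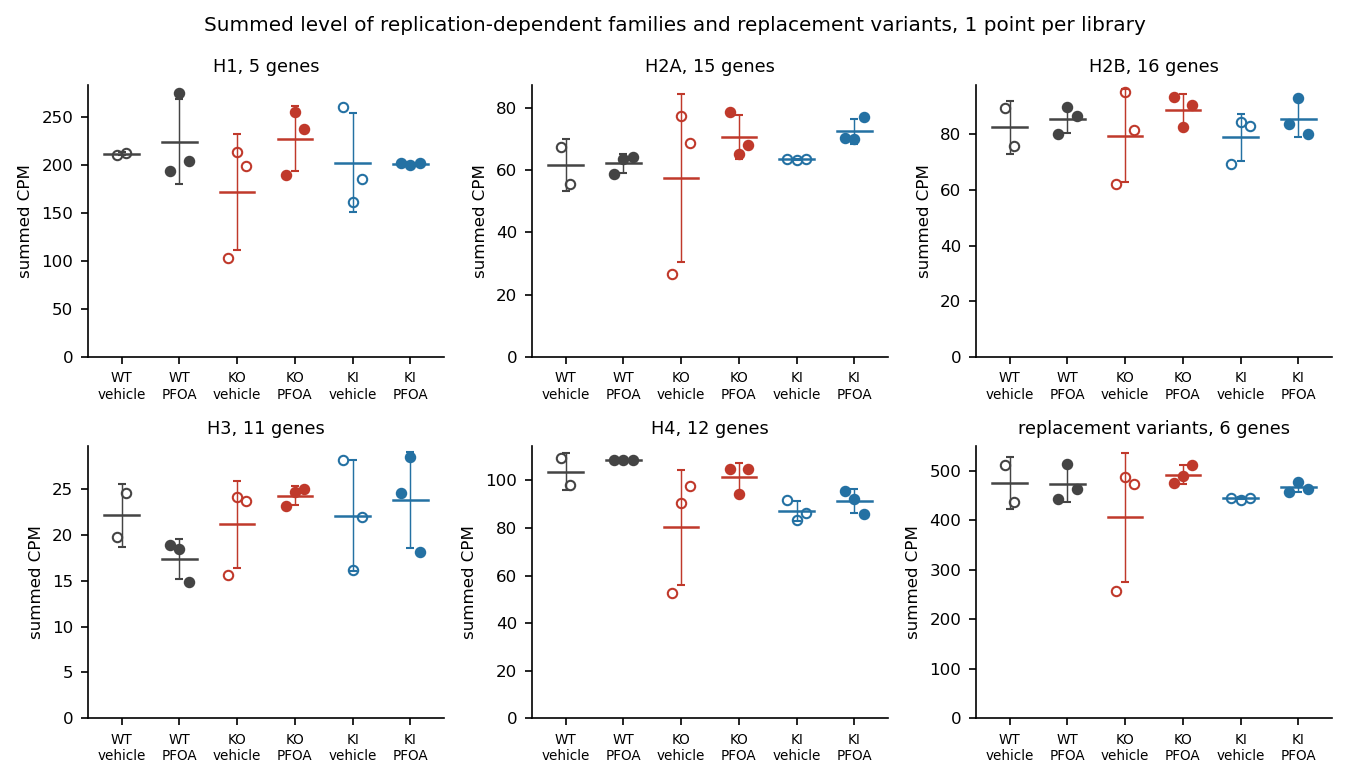
Summed CPM per library of the replication-dependent H1, H2A, H2B, H3 and H4 genes and of the 6 replacement variants. Points are libraries (open, vehicle; filled, PFOA), lines are group means and bars are SD. The low open KO point in every panel is KO vehicle 137, and in the H4 panel the KI libraries (83.5 to 95.7 CPM) sit below the WT libraries (98.1 to 109 CPM).

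Many members were alike enough in part that some short reads could not be assigned to one gene. Of the 67, 54 shared at least 1 stretch of 80 bases with another member. The authors' counting divides a read among the genes it fits, and 88.2% of the members' values were not whole numbers, against 31.3% in the whole table. H1f0 and H1f10 shared no stretch, and 70.6% and 76.5% of their values were not whole. Each overlaps a gene on the other strand. The 34 of 59 replication-dependent genes with at least 50% of their stretches unique held 84.8% of the replication-dependent CPM. In 4 pairs the coding sequences were identical, namely H2ac18 with H2ac19, Hist1h2ao with Hist1h2ap, Hist1h2bq with Hist1h2br, and Hist1h4m with Hist1h4n. Values of a single member of such a pair are uncertain.

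H2ac18 and H2ac19 (chr3:96245497-96246082 and chr3:96239749-96240276, GRCm38, opposite strands, 1 exon each) showed this most plainly. H2ac18 gave 24.1 and 22.8 CPM in WT vehicle, 1.90, 26.9 and 13.2 in WT PFOA, 3.22, 5.77 and 15.8 in KO vehicle, 10.9, 2.56 and 16.1 in KO PFOA, 33.7, 6.87 and 3.66 in KI vehicle and 20.7, 3.34 and 12.7 in KI PFOA. H2ac19 gave 7.99 and 2.78 CPM in WT vehicle, 25.1, 0.877 and 17.2 in WT PFOA, 5.30, 32.5 and 18.2 in KO vehicle, 28.6, 23.5 and 15.1 in KO PFOA, 1.91, 26.3 and 29.1 in KI vehicle and 13.2, 28.3 and 28.1 in KI PFOA. In the library where each was highest (KI vehicle 102 for H2ac18, KO vehicle 145 for H2ac19) the other was low. In WT PFOA 65, KO vehicle 149 and KO PFOA 155 they were similar, and in KO vehicle 137 both were low. The coefficient of variation over 17 libraries was 73.9% for H2ac18 and 60.6% for H2ac19 but 23.5% for their sum, which lay between 25.6 and 40.8 CPM in every library except KO vehicle 137, at 8.52 CPM. H2ac19 had no stretch of 80 bases of its own, while 11.2% of the stretches of H2ac18 were unique to it.

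**Figure D3:**
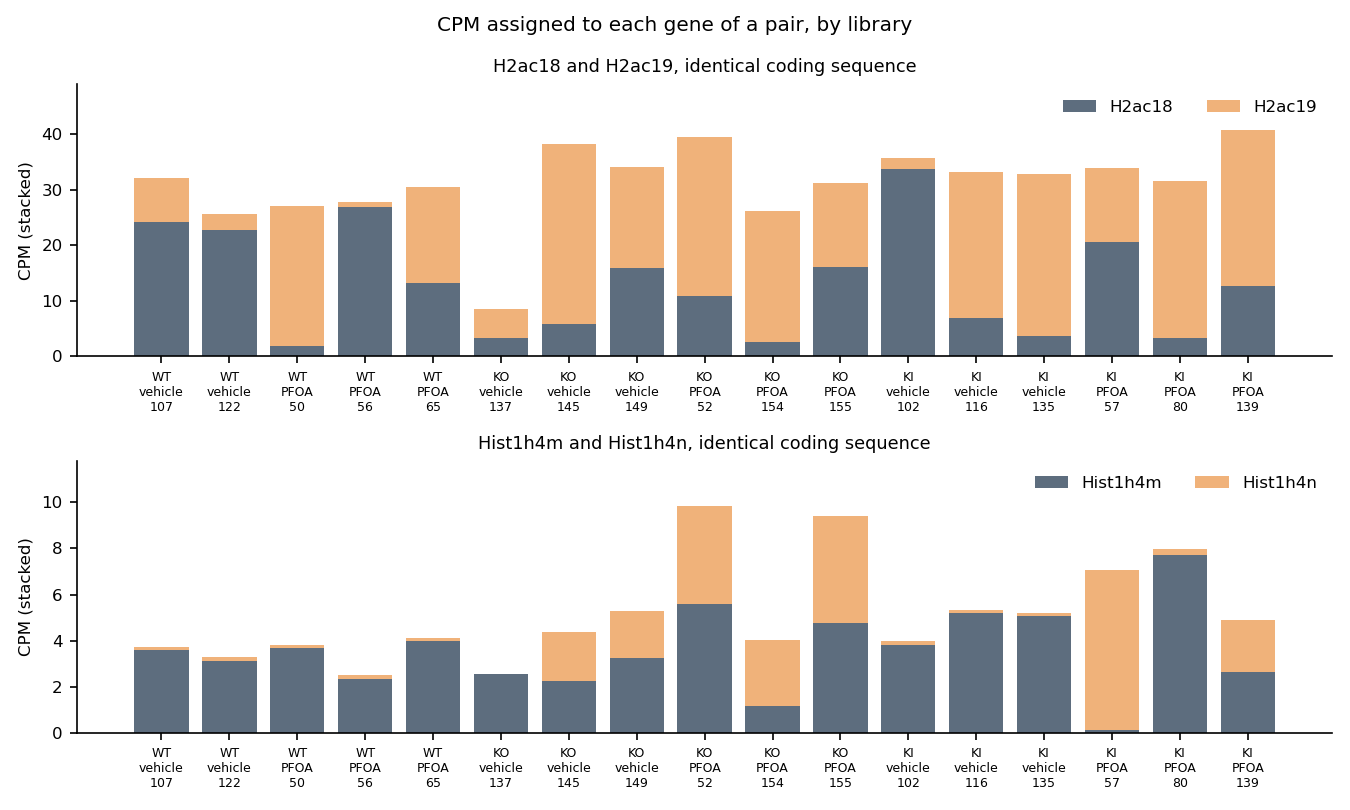
Stacked bars of CPM assigned to H2ac18 and H2ac19 (top) and to Hist1h4m and Hist1h4n (bottom) in each of 17 libraries. The split of the H2ac18 and H2ac19 total ranged from 7.04% to 96.8% H2ac18 between WT PFOA libraries 50 and 56, while the total changed little.

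Whether PFOA moved histone transcripts was asked within each genotype. A call here is an adjusted p under 0.2 with a fold change over 2, the thresholds of the study, taken from the quasi-likelihood fit of edgeR, with p adjusted by Benjamini-Hochberg over 26946 genes. All 67 members passed the filter of 20 counts in total. No member was called in WT, KO or KI, where the share of all genes called was 0% in each. At an unadjusted p under 0.05, 4 members stood out in WT (5.97%, against 7.35% of all genes), 6 in KO (8.96%, against 9.79%) and 2 in KI (2.99%, against 2.59%). DESeq2 on the same genes called 0 members and had 5, 5 and 2 at an unadjusted p under 0.05, while calling 24, 68 and 1 of all genes. The members' shares were thus near those of all genes.

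In WT, the median log2 fold change of the 67 members on PFOA was -0.00 and that of all genes 0.04. In KO it was 0.24 against -0.03, with 48 members above 0, and without KO vehicle 137 it was 0.08 against 0.01. In KI it was 0.09 against 0.01. The median in KO alone stood away from that of all genes, and it fell when the 1 low library was left out.

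The 2 smallest p-values in WT belonged to Hist1h2br and H3c13. Hist1h2br, an H2B gene, rounded to 0 counts in both WT vehicle libraries and was at 2.66, 1.32 and 2.44 CPM in WT PFOA. That is at least 9.88-fold higher, taking 3 counts over the vehicle group as the limit (edgeR adjusted p = 0.479). Its partner Hist1h2bq had 1.998 and 0 CPM in WT vehicle and 0, 0.146 and 0 CPM in WT PFOA, so the pair summed to 1.998 and 0 against 2.66, 1.46 and 2.44 CPM. H3c13 gave 5.46 and 8.68 CPM in WT vehicle and 2.15, 3.95 and 2.57 CPM in WT PFOA, and the groups did not overlap (log2 fold change -1.29 ± 0.45 SE, edgeR adjusted p = 0.544). It is nearly identical to H3c15, and their sum was 6.39 and 11.96 CPM against 5.32, 5.70 and 2.57 CPM. Without WT vehicle 107, the fit called 4 members (H2bc12, H2bc21, H3c13 and Hist1h2ap) and 1659 genes in all.

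In KO, the H4 gene H4c2 gave 4.61, 1.97 and 5.15 CPM on vehicle and 2.13, 1.92 and 1.05 CPM on PFOA, and the groups overlapped (log2 fold change -1.17 ± 0.44 SE, edgeR adjusted p = 0.477). The H3 gene H3c8 was at 0.921, 1.55 and 1.26 CPM on vehicle and 0, 0.213 and 0.299 CPM on PFOA, near the level of 3 counts (log2 fold change -2.77 ± 1.04, adjusted p = 0.479). In KI, Hist1h4n was at 0.159, 0.127 and 0.141 CPM on vehicle, about 1 count each, and at 6.96, 0.257 and 2.24 CPM on PFOA. The ratio was 23.6 (exact 95% counting interval 7.79 to 117, edgeR adjusted p = 1). Such intervals, here and below, take rounded estimates pooled over a group as counts. They cover neither the spread between mice nor the division of reads among genes. The 3 KI PFOA libraries lay above all KI vehicle libraries for Hist1h4n but differed widely among themselves. H2ac20 gave 14.0, 13.5 and 11.7 CPM on vehicle and 16.7, 19.1 and 18.6 CPM on PFOA in KI, and the groups did not overlap (log2 fold change 0.47 ± 0.22, adjusted p = 1).

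No member was called for a difference in PFOA response between genotypes. For the effect in KO minus that in WT, 0 members were called (background 0%) and 8 had an unadjusted p under 0.05 (11.9%, against 7.46% of all genes). The smallest p-values were those of Hist1h2br and H2ac13, both with adjusted p = 0.669. For KI minus WT, 0 members were called (background 0%) and 5 had an unadjusted p under 0.05 (7.46%, against 4.58%), led by H2bc12 (difference of log2 fold changes -3.74 ± 1.52 SE) and H2ac20 (0.76 ± 0.32), both with adjusted p = 0.999. Fitted over the 3 genotypes together, 0 members were called (background 0%) and 3 had an unadjusted p under 0.05 (4.48%, against 8.27%), with Hist1h4n at a log2 fold change of 2.18 ± 0.64 (adjusted p = 0.457) and H4c1 at 1.11 ± 0.53 (adjusted p = 0.600). DESeq2 called 0 members in these 3 comparisons and had 7, 5 and 4 at an unadjusted p under 0.05.

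Genotype was compared within each treatment, and here 5 genes were called. On vehicle, 3 of 67 members were called between KO and WT (4.48%, against 1.37% of all genes), namely H4c1, H2bc18 and H2bc13, and 2 between KI and WT (2.99%, against 0.857%), namely H4c1 and H2bc13. All were lower than in WT. On PFOA, 3 were called between KO and WT (4.48%, against 1.01%), with H4c1 and H4c2 lower and Hist1h4n higher, and 4 between KI and WT (5.97%, against 0.527%), with H4c1, H4c2 and H2bc13 lower and Hist1h4n higher. By direction, the share of all genes called lower was 0.453%, 0.301%, 0.371% and 0.189% in these 4 comparisons and the share called higher was 0.913%, 0.557%, 0.635% and 0.338%. At an unadjusted p under 0.05, 10 members stood out for KO against WT on vehicle (14.9%, against 14.2% of all genes), 7 for KI on vehicle (10.4%, against 9.29%), 12 for KO on PFOA (17.9%, against 7.65%) and 14 for KI on PFOA (20.9%, against 5.41%). The KO and KI comparisons share their WT libraries and are not independent of each other.

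**Figure D4:**
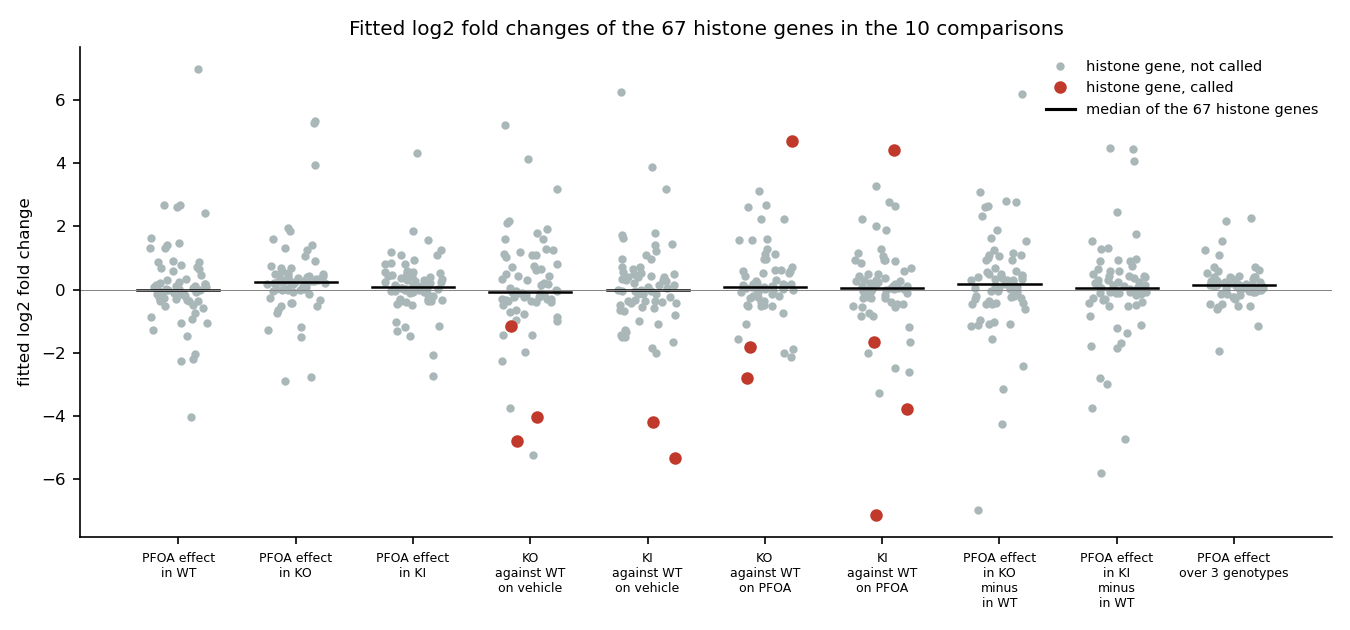
Fitted log2 fold changes of the 67 histone genes in the 10 comparisons. Each point is a gene, red points are called and black lines are medians over the 67 genes. The red points are in the 4 comparisons between genotypes, 10 below 0 and 2 above, while the medians stay between -0.08 and 0.24. Fitted values of genes with 0 counts in a group depend on the prior count.

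H4c1 (chr13:23760692-23761230, GRCm38, minus strand, 1 exon), one of the genes for the single H4 protein, was high in WT and near absent elsewhere. It gave 3.197 and 4.26 CPM in WT vehicle and 6.59, 4.53 and 7.07 CPM in WT PFOA. In KO it gave 0.461, 0 and 0.251 CPM on vehicle and 0.664, 1.28 and 0.598 CPM on PFOA. In KI it gave 0.318, 0.255 and 0 CPM on vehicle and 0, 1.28 and 0 CPM on PFOA. Every WT library lay above every other library. The log2 fold change was -4.03 ± 1.02 (edgeR adjusted p = 0.117) for KO and -4.18 ± 1.01 (adjusted p = 0.110) for KI on vehicle, and -2.79 ± 0.76 (adjusted p = 0.152) for KO and -3.78 ± 0.83 (adjusted p = 0.0734) for KI on PFOA.

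H2bc13 (chr13:21715763-21716143, minus strand, 1 exon), an H2B gene, had the same pattern. It gave 3.46 and 5.73 CPM in WT vehicle and 2.41, 2.19 and 2.57 CPM in WT PFOA. After rounding it was at 0 in 9 of the 12 KO and KI libraries. The other 3 were KO vehicle 149 at 0.377, KI vehicle 102 at 0.318 and KO PFOA 154 at 1.60 CPM. WT vehicle had 61 counts against 3 in KO vehicle, a ratio of 29.0 (exact 95% counting interval 9.47 to 145; edgeR adjusted p = 0.142), and against 2 in KI vehicle, a ratio of 47.6 (12.6 to 402; adjusted p = 0.143). On PFOA, WT had 54 counts and KI 0 after rounding. With 3 counts over the KI group as the limit, the gene was at least 18.95-fold lower in KI (edgeR adjusted p = 0.129).

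H2bc18 (chr3:96269752-96270132, plus strand, 1 exon) was the one called gene outside the chromosome 13 cluster. It gave 17.1 and 18.2 CPM in WT vehicle and 14.6, 15.2 and 15.4 CPM in WT PFOA, against 5.99, 8.87 and 8.66 in KO vehicle, 7.84, 7.88 and 11.4 in KO PFOA, 12.6, 5.85 and 8.15 in KI vehicle and 6.74, 7.58 and 12.7 in KI PFOA. WT again lay above all other libraries, with a smaller gap (KO vehicle log2 fold change -1.15 ± 0.30, edgeR adjusted p = 0.131). Another gene model that overlaps H2bc18 on the same strand, Gm42743, gave 3.33 to 6.55 CPM in WT. After rounding it was at 0 in 9 of the 12 other libraries. The sum of both models was 18.8 to 22.9 CPM in WT and 5.85 to 15.3 CPM elsewhere. The call was lost without KO vehicle 137 (log2 fold change -0.99, adjusted p = 0.236) and with sex as a covariate (-1.08, adjusted p = 0.248).

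H4c2 (chr13:23757013-23757409, plus strand, 1 exon), which neighbours H4c1, gave 5.59 and 7.04 CPM in WT vehicle and 7.10, 5.85 and 5.14 CPM in WT PFOA. In KI it was at 1.43, 4.07 and 1.83 CPM on vehicle and 2.51, 1.67 and 1.40 CPM on PFOA, and the KO values are given above. The PFOA groups did not overlap with WT PFOA (log2 fold change -1.80 ± 0.42, edgeR adjusted p = 0.0713 for KO, and -1.68 ± 0.42, adjusted p = 0.152 for KI). Hist1h4n (chr13:21831767-21832196, minus strand, 1 exon) moved the other way, at 0.127 to 0.164 CPM in all 5 WT libraries, about 1 count each, and 4.25, 2.87 and 4.64 CPM in KO PFOA. It was at 0, 2.11 and 2.01 CPM in KO vehicle. On PFOA, KO had 90 counts against 3 in WT, a ratio of 28.6 (exact 95% counting interval 9.48 to 141; adjusted p = 0.0503), and KI had 79, a ratio of 25.02 (8.25 to 124; adjusted p = 0.111).

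**Figure D5:**
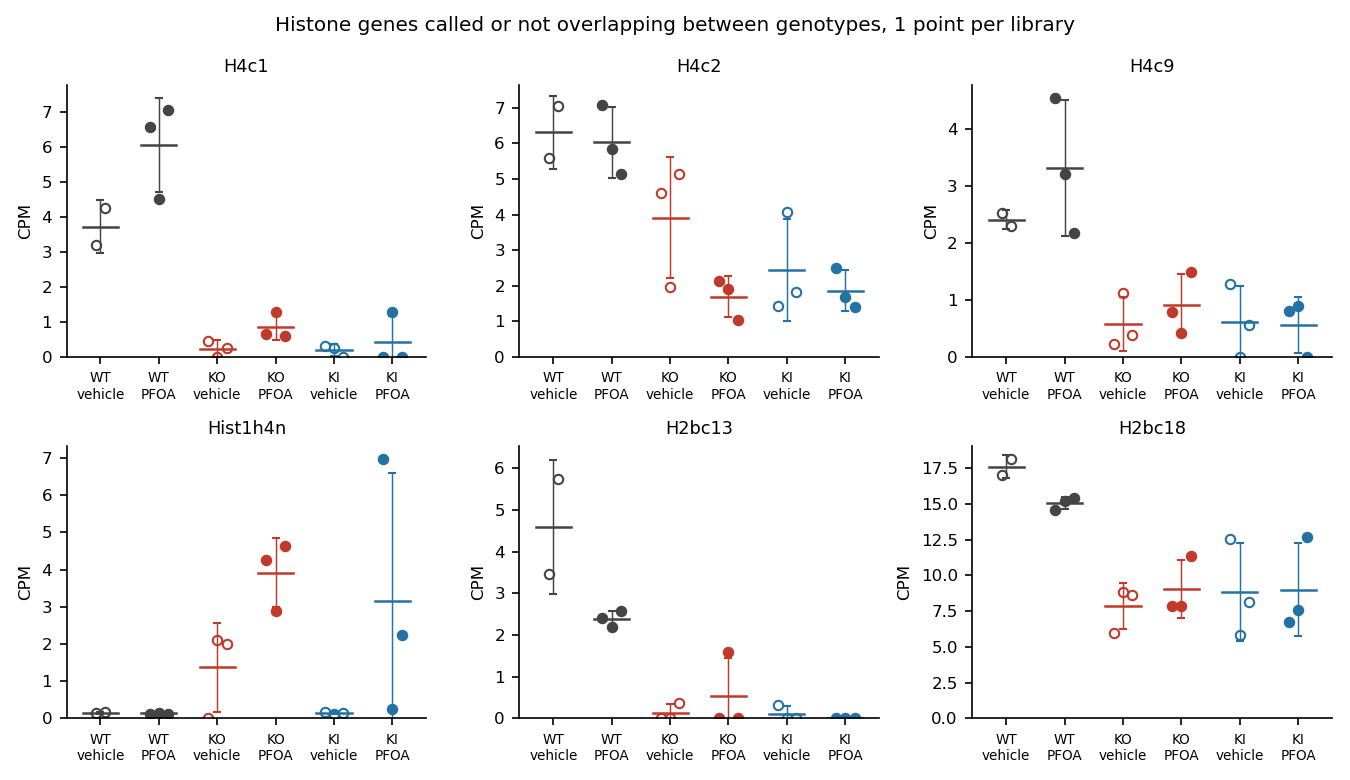
CPM per library of H4c1, H4c2, H4c9, Hist1h4n, H2bc13 and H2bc18 in the 6 groups. Points are libraries (open, vehicle; filled, PFOA), lines are group means and bars are SD, ended at 0 where they would pass below it. H4c1, H4c9, H2bc13 and H2bc18 are higher in all 5 WT libraries than in any KO or KI library, and Hist1h4n is near 0 in WT.

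Taken without a test, 4 of the 67 members (5.97%) had all 5 WT libraries above all 12 KO and KI libraries, against 0.520% of all genes, and 0 had all WT libraries below, against 0.412%. They were H4c1, H2bc13, H2bc18 and H4c9, the last chosen after its values were seen. H4c9 (chr13:22040636-22041362, minus strand, 1 exon), an H4 gene, gave 2.53 and 2.29 CPM in WT vehicle, 4.56, 3.22 and 2.18 CPM in WT PFOA and 0 to 1.495 CPM elsewhere.

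A stretch of the H4 coding sequence is printed because H4c1, H4c2, H4c9 and Hist1h4n differ there only at scattered bases. Their transcripts also differ outside the coding sequence, as in the stem-loops printed above for H4c1, H4c2 and H4c9. Over 312 coding bases, 21 positions differed among the 4 genes, and the 60 bases from position 16 to 75 of the coding sequence (counted from 1 at the start codon) held 10 of them. Capitals mark those positions, in the reference transcripts of GENCODE M21 (GRCm38), read 5′ to 3′.
H4c1: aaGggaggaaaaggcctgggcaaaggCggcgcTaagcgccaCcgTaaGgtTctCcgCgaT
H4c2: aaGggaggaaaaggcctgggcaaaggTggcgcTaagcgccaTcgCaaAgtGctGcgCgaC
H4c9: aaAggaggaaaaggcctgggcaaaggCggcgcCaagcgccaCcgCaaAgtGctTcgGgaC
Hist1h4n: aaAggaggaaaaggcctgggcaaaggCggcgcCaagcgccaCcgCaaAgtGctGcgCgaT
H4c1 shared 80-base stretches with 10 other H4 genes, 65.2% of its stretches were unique to it, and all its values were other than whole in every library. For Hist1h4n the unique share was 18.2%, for H4c2 52.5%, for H4c9 79.8% and for H2bc13 28.8%.

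Sums over look-alike genes were therefore set beside the single genes, an alternative added after the data were seen. The 11 H4 genes that share stretches summed to 91.1 to 101 CPM in the 5 WT libraries, 46.1, 81.3 and 85.8 CPM in KO vehicle, 84.4 to 96.5 CPM in KO PFOA, 78.9 to 84.4 CPM in KI vehicle and 78.8 to 87.1 CPM in KI PFOA. Within each treatment, KO and KI lay below WT, which was at 91.1 and 99.4 CPM on vehicle and 97.4 to 101 CPM on PFOA. Without H4c1, H4c2 and Hist1h4n, the remaining 8 gave 79.6 and 90.4 CPM in WT vehicle, 41.0 to 78.4 CPM in KO vehicle and 74.6 to 82.5 CPM in KI vehicle. On PFOA they gave 84.4 to 90.3 CPM in WT, 78.4 to 90.2 CPM in KO and 75.2 to 80.7 CPM in KI. KO vehicle and KI PFOA still lay below WT of the same treatment, while KI vehicle and KO PFOA overlapped with it. The 14 H2B genes that share stretches, H2bc13 among them, summed to 56.3 to 70.3 CPM in WT and 49.3 to 81.5 CPM elsewhere, and only KO PFOA (70.7 to 79.7 CPM) did not overlap with WT of the same treatment (62.0 to 70.3 CPM), which it exceeded. Hist1h4m and Hist1h4n together gave 2.49 to 4.11 CPM in WT and 2.53 to 9.83 CPM elsewhere, and both KI groups lay above WT of the same treatment while both KO groups overlapped with it. How far the division of reads among these genes set the calls was not tested.

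The third field of the deposited column names, a code whose meaning is not given in the sources used here, overlapped with the groups. No KO or KI vehicle library shared a code with WT vehicle, so on vehicle this code and genotype cannot be told apart. On PFOA, H4c1 was at 4.53 CPM in WT 56 and 0.598 to 1.28 CPM in the 3 KO libraries that shared its code, at 6.59 in WT 50 and 1.28 in KI 80, and at 7.07 in WT 65 and 0 in KI 57. H2bc18 was at 15.2 CPM against 7.84 to 11.4 CPM, 14.6 against 7.58 CPM, and 15.4 against 6.74 CPM in the same libraries. Both were lower in KO and KI within each code that held a WT PFOA library. KI PFOA 139 had a code without a WT PFOA library and was at 0 CPM for H4c1 and 12.7 CPM for H2bc18. Hist1h4n was at 0.146 CPM in WT 56 against 2.87 to 4.64 CPM in KO, at 0.127 CPM in WT 50 against 0.257 in KI 80, and at 0.129 CPM in WT 65 against 6.96 in KI 57.

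The calls rested on few libraries, and the calls over all genes varied widely too. Over the alternatives tried, calls among all 26946 genes ranged from 29 to 1706 for KO and from 44 to 1416 for KI on vehicle. On PFOA they ranged from 93 to 659 for KO and from 58 to 246 for KI. Without WT vehicle 122, 0 members were called in both vehicle comparisons, and without WT vehicle 107 there were 7 for KO and 6 for KI. KO against WT gave 1 without KO vehicle 145, and KI against WT gave 1 without KI vehicle 102, 0 without KI vehicle 135 and 1 without WT PFOA 50. On PFOA, 0 were called in either comparison without WT PFOA 50. KO against WT then gave 0 without WT PFOA 56, 1 without KO PFOA 155 and 5 without KO vehicle 137. KI against WT gave 1 without WT PFOA 56, 0 without WT PFOA 65, and 1, 2 and 1 without KI PFOA 57, 80 and 139. All KO mice were female and 2 of the 3 WT PFOA mice male, and for KO against WT on PFOA the call of H4c1 was lost with sex as a covariate (adjusted p = 0.265). With the third name field as a covariate, the calls of H4c1 (adjusted p = 0.571) and H4c2 (adjusted p = 0.600) were lost in that comparison. There the call of H4c1 was also lost without any 1 of WT PFOA 50, 56 and 65 and KO PFOA 52, 154 and 155. For KI against WT on PFOA, the call of H2bc13 was lost without any 1 of WT PFOA 50, 56 and 65 and KI PFOA 57, 80 and 139. The fitted direction of each called gene was kept in every alternative that gave a value.

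Genes of DNA replication, mitosis and histone supply were examined beside the members. Of 28 genes of S phase and DNA replication, 0 were called in the PFOA comparisons and in KO or KI against WT on vehicle, and 1 was called between KO and WT on PFOA, Mcm6, a subunit of the replicative helicase (log2 fold change 1.65 ± 0.41, edgeR adjusted p = 0.0907). Its neighbour by p in that comparison was Ccne1, a cyclin of S phase entry (log2 fold change -1.45 ± 0.80, adjusted p = 0.741). Of 20 genes of G2 and mitosis, 0 were called in any comparison. Between KO and WT on PFOA their median log2 fold change was 0.38 against -0.00 for all genes, and 5 had an unadjusted p under 0.05, all higher, led by Mki67 (0.85 ± 0.21, adjusted p = 0.100, under the fold threshold) and Top2a (0.64 ± 0.21, adjusted p = 0.269), where 7.65% of all genes had such a p in either direction. Between KI and WT on PFOA the median was 0.33 and 5 of the 20 were higher at that p (5.41% of all genes), and between KO and WT on vehicle it was 0.55 and 3 were higher (14.2% of all genes).

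Of 22 genes for transcription and 3′ end processing of histone mRNA, which include the stem-loop binding protein, and of 24 histone chaperones and exchange factors, 0 were called in any of the 10 comparisons. The smallest p-values between KI and WT on vehicle belonged, in the first list, to Snrpf, a core protein of spliceosomal particles (log2 fold change 5.87 ± 1.65, adjusted p = 0.201) and Eri1, an exonuclease that trims histone mRNA ends (-0.35 ± 0.14, adjusted p = 0.449). In the second they belonged to Chaf1b, a subunit of the assembly factor that deposits new H3 and H4 (-1.36 ± 0.47, adjusted p = 0.340) and Cabin1 (-0.40 ± 0.15, adjusted p = 0.399). Of 7 histone genes outside the name rule, 1 was called, Cenpa, the centromeric H3 variant, higher in KO than in WT on vehicle (1.47 ± 0.37, adjusted p = 0.118), followed by H2aj (-0.54 ± 0.19, adjusted p = 0.274). In that comparison, where 1.37% of all genes were called, the median of the 7 was -0.46, and 3 were lower and 1 higher at an unadjusted p under 0.05 (14.2% of all genes).

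Markers of some cell types differed between genotypes or with PFOA as well. Of 3 club cell genes, Cyp2f2 and Scgb1a1 were called lower in KO than in WT on vehicle, and the list summed to 11430 to 24860 CPM in WT vehicle and 7140 to 8052 CPM in KO vehicle (1.37% of all genes called). WT PFOA was at 6751 to 8632 CPM, all 3 genes were lower on PFOA in WT at an unadjusted p under 0.05 (median log2 fold change -1.22), and 0 were called between genotypes on PFOA. Of 5 B and plasma cell genes, 3 were called higher in KI than in WT on vehicle (0.857% of all genes called). Between KO and WT on PFOA 1 was called higher (1.01% of all genes called). The sums were 10.2 to 15.2 CPM in WT vehicle and 13.9 to 101 CPM in KI vehicle, with overlap. On PFOA, 1 of the 5 was lower at an unadjusted p under 0.05 in KO and in KI against WT, beside 4 higher in KO and 0 in KI. The T cell, neutrophil, alveolar type 1, alveolar type 2 and endothelial lists had 0 calls in all 10 comparisons. At an unadjusted p under 0.05, 4 of 6 T cell genes were higher on PFOA in WT (median log2 fold change 1.19, 7.35% of all genes). In KO 5 of the 6 were higher (0.985, 9.79%) and in KI 1 (0.176, 2.59%). Of 4 neutrophil genes, 4 were higher on PFOA over 3 genotypes (1.40, 8.27%) and 3 between KO and WT on PFOA (1.54, 7.65%). Cardiac muscle genes, summing to 276 to 7119 CPM, and erythroid genes, summing to 405 to 2526 CPM, had 0 calls and varied widely between libraries. The cardiac sum was 2068 to 7119 CPM in KI vehicle and 433 to 727 CPM in WT vehicle, without overlap, and 5 of the 6 genes were higher at an unadjusted p under 0.05 (9.29% of all genes). No marker measured was at 0 in all libraries. The part of cell composition in the histone results was not tested.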

How the data were processed

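Per the labels and the study's methods, lung RNA was made into SMARTer Stranded Total RNA-Seq v2 Pico libraries, and reads were aligned to mm10 with STAR 2.6 in Partek. The authors deposited estimated counts per gene from an expectation-maximization model, which divides reads among genes and gives values that need not be whole. The annotation release and strand setting are not given in the sources used here, so reads from antisense or overlapping genes may be included. Each library is 1 mouse.

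The estimated counts were rounded and genes with a total under 20 left out. All 6 groups were fitted in edgeR 4.0.16 (R 4.3.3) with TMM factors, a quasi-likelihood F-test and Benjamini-Hochberg adjustment, without covariates. The SE printed with an edgeR log2 fold change is its absolute value divided by the square root of F, so it restates the test. CPM uses TMM-scaled library sizes. Sums, medians and ratios were given no test. On simulated data with 200 genes changed 4-fold, the fit recovered 190 for PFOA in WT and called 17 other genes. The changed genes were drawn from those averaging at least 20 counts per library, so the recovery does not describe members with fewer counts. Settings tried were other scalings, DESeq2 1.42.0, filters, covariates, thresholds and leaving out each library.

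Coordinates, exon lengths and transcripts were those of GENCODE M21, which matched all 67 members, and promoters those of RefSeq. Genes named with a test were every called member (up to 5 a comparison) or else the 2 with the smallest p, beside the 10 highest members by CPM, the highest by length in each family and the replacement variants. The members and gene lists were chosen with earlier results of these data known.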

Additional observations from a re-analysis of the deposited data

How the results depend on the processing

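Counts of histone genes called were recomputed under 32 alternatives, 31 of which could be had for PFOA over 3 genotypes. RLE, upper-quartile and protein-coding TMM scaling, no filter, filterByExpr, robust estimation and an adjusted p under 0.2 with no fold threshold kept every count within 1.5 times. With an adjusted p under 0.05 and no fold threshold, 0 were called in each of the 4 genotype comparisons. For KO against WT on PFOA, DESeq2 called 5 on the same genes and 5 with its default filters, the protein-coding share as a covariate gave 5 and the fit of the groups compared alone gave 8. For KO against WT on vehicle, these last settings gave 5 and 0, and sex as a covariate gave 1. With the third name field as a covariate, 1 was called for PFOA in KO (H2ac19), 1 for KO against WT on vehicle (H2ac13), 1 for KI against WT on vehicle (H4c12) and 2 for KI against WT on PFOA. Without WT vehicle 122 and KO vehicle 137 together, 0 were called in both vehicle genotype comparisons and 5 for KO against WT on PFOA. Leaving out 1 library at a time, the count ranged from 0 to 4 for PFOA in WT, 0 to 7 for KO and 0 to 6 for KI against WT on vehicle, and 0 to 5 for KO and 0 to 4 for KI against WT on PFOA. It stayed at 0 for PFOA in KO and KI, for both differences of effects and for PFOA over 3 genotypes. Calls over all genes varied as well over the alternatives, from 29 to 1706 for KO against WT on vehicle and from 93 to 659 on PFOA. The causes were not tested. The direction of each named fold change was kept in all alternatives. Over all genes, KO against WT on vehicle had 246 calls higher and 122 lower, and 274 and 71 with upper-quartile scaling, which moved the median of all genes from 0.05 to 0.16 and that of the histone genes from -0.08 to 0.04 (log2).

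No paired analysis was possible because the labels give each group its own animal numbers. Of the 59 replication-dependent genes, 13 averaged under 1 CPM, where few counts per library limit the precision.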
